A study of Mus musculus with 6 samples.

Results

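The matrix metalloproteinase (MMP), ADAMTS and tissue inhibitor of metalloproteinases (TIMP) genes were examined in primary uterine stromal cells that lack Pbrm1. The 44 genes, namely 21 Mmp, 19 Adamts and 4 Timp genes, were taken by symbol from a count table of 54232 genes, 28552 of them with a count in some library. Of the 44 genes, 42 had a count, 36 passed the filter on low counts and were tested, and Mmp20 and Mmp21 were at 0 in all 6 libraries. The other untested genes were Mmp24, Timp4, Adamts13, Adamts16, Adamts18 and Adamts20, which reached at most 6 counts in any library.

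Cells came from uteri of mice aged 8 to 12 weeks on day 4 (D4), which the labels give as a day of pregnancy and, in the protocol, as pseudopregnancy. The compared groups were 3 libraries labelled WT and 3 labelled Pbrm1 cKO, a conditional knockout of Pbrm1, which encodes a subunit of a SWI/SNF chromatin remodeler. According to the study's methods, the Pbrm1 cKO carries floxed Pbrm1 alleles and a Cre inserted at the progesterone receptor gene (PR-IRES-cre), so deletion is limited to cells that have expressed that receptor, and the controls are Pbrm1 fl/fl mice without Cre. In both groups 5 to 10 uterine horns were digested with dispase, pancreatin and collagenase, and the cells were cultured for 4 h and then for another 2 h in fresh medium before RNA was taken. The study calls its replicates biological, but the labels do not say whether they came from separate animals or cultures, so the p-values measure the spread between these samples.

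MMPs are zinc-dependent endopeptidases that are made as inactive proenzymes and cleave collagens, gelatin, proteoglycans and elastin outside the cell. ADAMTS enzymes are secreted relatives with thrombospondin repeats that cleave proteoglycans such as versican or trim procollagens. TIMPs bind the active site of these enzymes and block them, and the balance of enzymes and inhibitors is known to shape the remodeling of the uterine stroma around implantation.

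Libraries held 13253575 to 18338667 counts. Pbrm1 had 1354, 1385 and 1677 normalized counts (counts divided by the library's size factor) in the WT libraries, in the order of replicates 1, 2 and 3 used throughout, and 396.6, 458.6 and 451.3 in the knockout. The knockout level was thus 29.6% of the WT level (log2 fold change -1.76 ± 0.13 SE, adjusted p = 5.19e-40). Across the 17474 genes tested, 31.1% were called at an adjusted p under 0.05, with 15.9% higher and 15.2% lower in Pbrm1 cKO, and the groups did not overlap for 48.6%. The WT libraries were more variable than the Pbrm1 cKO libraries (biological coefficient of variation 0.16 against 0.0466). WT replicate 1 had the lowest summed level of macrophage, epithelial and endothelial markers among the WT libraries.

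Of the 36 tested genes, 17 (47.2%) were called, 12 higher and 5 lower in Pbrm1 cKO. The 12 higher genes were 33.3% of those tested, against the 15.9% of all genes, and the 5 lower genes were 13.9%, against 15.2%. The higher genes were Mmp12, Mmp13, Mmp27, Mmp8, Mmp9, Mmp10, Mmp14, Timp1, Adamts3, Adamts6, Adamts10 and Adamts12. The lower genes were Adamts5, Timp2, Adamts1, Mmp17 and Mmp23. The median log2 fold change was 0.08 over the tested genes of these families and near 0 (-0.000744) over all genes tested. The groups did not overlap for 21 of the 36 genes (58.3%), against 48.6% of all genes tested. These 21 are the 17 called genes and the uncalled Mmp25, Adamts7, Adamts8 and Adamts9.

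**Figure D1:**
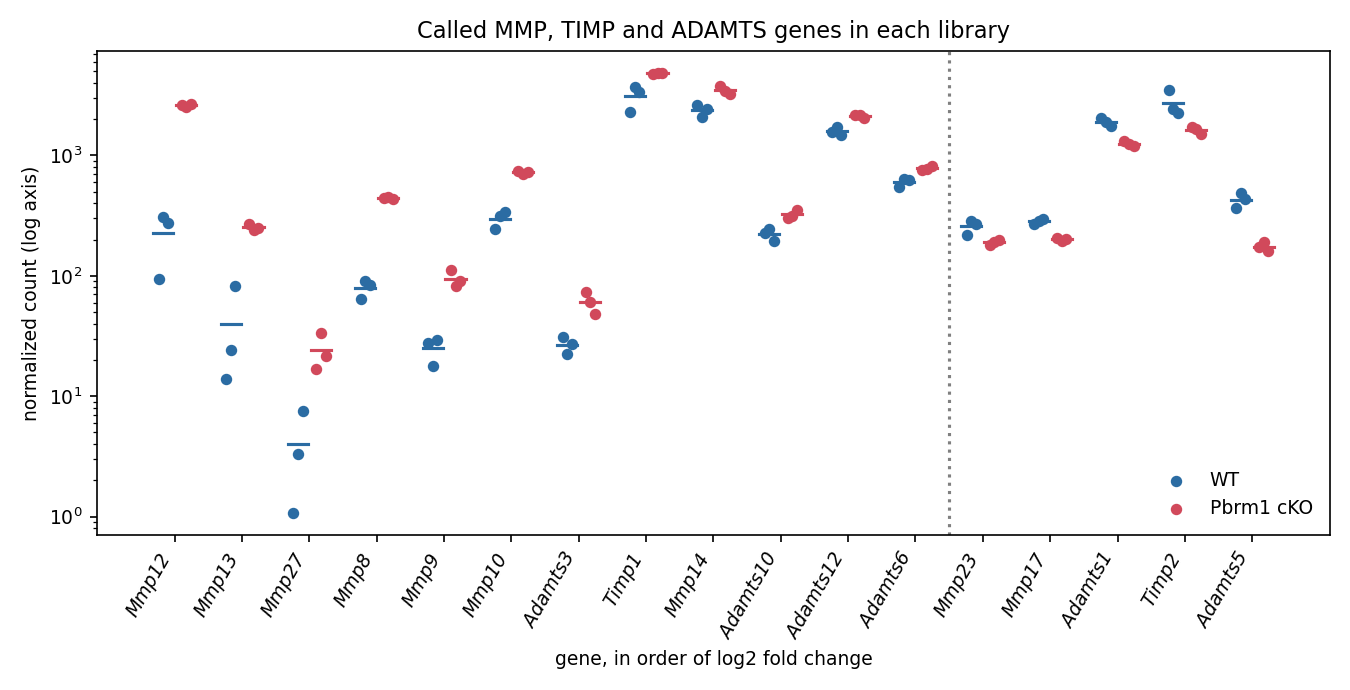
Normalized counts of the 17 called genes (log axis), ordered by log2 fold change from Mmp12 at the left to Adamts5 at the right, with 1 point for each WT (blue) and Pbrm1 cKO (red) library, lines at group means and a dotted line between higher and lower genes. The groups do not overlap for any of these genes, and the WT points of Mmp12, Mmp13 and Mmp27 are the most scattered.

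Collagenases cleave the triple helix of fibrillar collagen, and both measured members were higher in Pbrm1 cKO. Mmp8 (chr9:7558456-7568485), known as the collagenase of neutrophils and found in other cells too, had 64.13, 91.01 and 84.31 normalized counts among WT libraries and 441.0, 449.0 and 437.2 in Pbrm1 cKO. The lowest Pbrm1 cKO library was thus far above the highest WT library, and the log2 fold change was 2.47 ± 0.17 (SE, adjusted p = 9.78e-44). Mmp13 (chr9:7272514-7283331), the main interstitial collagenase of rodents, had 13.9, 24.42 and 82.15 normalized counts among WT libraries and 268.3, 241.3 and 248.6 in Pbrm1 cKO. WT replicate 3 was high for its group, but it did not reach any Pbrm1 cKO library. The log2 fold change of Mmp13 was 2.65 ± 0.71 (adjusted p = 0.00119), and the value was 2.24 when WT replicate 1 was left out and 3.72 when WT replicate 3 was. The rodent collagenase genes Mmp1a and Mmp1b, which are not among the 44 genes, reached at most 3 counts in any library and were not tested.

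Gelatinases degrade denatured collagen and basement membrane. Mmp9 (chr2:164940780-164955850) had 27.79, 17.76 and 29.19 normalized counts among WT libraries and 111.5, 82.3 and 91.01 in Pbrm1 cKO, with a log2 fold change of 1.93 ± 0.31 (adjusted p = 1.52e-08). Mmp2, the gelatinase that fibroblasts and stromal cells make, did not pass the test. Its normalized counts were 3129, 2477 and 2133 in WT and 2389, 2281 and 2237 in Pbrm1 cKO, so that the groups overlapped (log2 fold change -0.16 ± 0.14, adjusted p = 0.421). Without WT replicate 3 it was called lower (-0.288, adjusted p = 0.042), and without WT replicate 1 the value was -0.002 (adjusted p = 0.987). Per length, in TPM (transcript counts per length, scaled to a fixed library total), Mmp2 stood at 144.5 ± 31.21 in WT and 148.0 ± 9.303 in Pbrm1 cKO (n = 3 each, SD). Mmp9 stood at 1.331 ± 0.3567 and 5.82 ± 1.041 TPM, so Mmp2 remained the more abundant gelatinase transcript in both groups.

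Stromelysins cleave proteoglycans and glycoproteins and activate other MMPs. Mmp10 (stromelysin-2, chr9:7502352-7510240) had 244.8, 311.9 and 337.3 normalized counts among WT libraries and 738.0, 695.9 and 730.0 in Pbrm1 cKO (log2 fold change 1.28 ± 0.14, adjusted p = 2.55e-17). Mmp3 (stromelysin-1), its neighbour in the genome, ranged from 534.4 to 731.8 in WT and from 690.4 to 806.0 in Pbrm1 cKO, with overlapping groups (log2 fold change 0.19 ± 0.15, adjusted p = 0.352). In TPM, Mmp10 was below Mmp3 in WT (32.54 ± 4.767 against 68.59 ± 10.02), while in Pbrm1 cKO their levels differed by less than the spread (90.72 ± 4.004 against 90.2 ± 5.846, SD, n = 3 each). Mmp3 and Mmp10 have stretches in common, with 140 of the 1752 Mmp3 and of the 1673 Mmp10 sequences of 50 bases found in both genes, and reads from these stretches could not be assigned to a single gene. Mmp11 (stromelysin-3), which rises in remodeling stroma in many tissues, ranged from 178.4 to 274.7 in WT and from 226.9 to 241.7 in Pbrm1 cKO and was not called (adjusted p = 0.993).

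Mmp12 (macrophage elastase, chr9:7344381-7369499), which degrades elastin, had the highest log2 fold change of the 36 tested genes. It had 94.06, 308.5 and 274.6 normalized counts among WT libraries and 2611, 2525 and 2696 in Pbrm1 cKO, which is 11.6-fold on the group means (log2 fold change 3.53 ± 0.49, adjusted p = 1.01e-11). The low value of WT replicate 1 enlarged this difference, and without that library the log2 fold change was 3.16. Mmp27, a low-expressed member, had 1.069, 3.329 and 7.567 normalized counts among WT libraries and 16.77, 33.56 and 21.58 in Pbrm1 cKO (log2 fold change 2.59 ± 0.71, adjusted p = 0.00145). This call rests on few reads, with 1 to 7 raw counts per WT library and 17 to 42 per Pbrm1 cKO library, and was lost without Pbrm1 cKO replicate 2 (adjusted p = 0.0568). The log2 fold change was 2.14 when WT replicate 1 was left out and 3.46 when WT replicate 3 was. Mmp7 (matrilysin), a secreted MMP of epithelia, had 2 to 9 raw counts in WT and 3 to 5 in Pbrm1 cKO and was not called (adjusted p = 0.502).

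Membrane-type MMPs are anchored at the cell surface. Mmp14 (MT1-MMP, chr14:54431612-54445364), which activates proMMP2 and cleaves pericellular collagen, had 2634, 2083 and 2421 normalized counts among WT libraries and 3749, 3446 and 3233 in Pbrm1 cKO. Its log2 fold change was 0.55 ± 0.12 (adjusted p = 2.26e-05), and the groups did not overlap. The glycosylphosphatidylinositol-anchored Mmp17 fell from 269.4, 287.4 and 297.3 normalized counts in WT to 204.2, 195.8 and 200.8 in Pbrm1 cKO (log2 fold change -0.51 ± 0.15, adjusted p = 0.00259). With the replicate number as a block its adjusted p was 0.0504. Mmp15, Mmp16 and Mmp25 were not called, at log2 fold changes of -0.50, -0.34 and 0.97. Mmp25, a membrane-type MMP of leukocytes, had 6 to 8 raw counts in WT and 15 to 17 in Pbrm1 cKO (adjusted p = 0.244), and edgeR called it at an adjusted p of 0.043.

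Among the remaining MMPs, Mmp23 was lower in Pbrm1 cKO, with 219.1, 284.1 and 269.2 normalized counts among WT libraries and 180.5, 191.0 and 198.0 in Pbrm1 cKO (log2 fold change -0.44 ± 0.17, adjusted p = 0.0291). This call was lost in 8 of 14 alternative analyses. Mmp19, a broad-range MMP, was the most abundant MMP transcript in every library and took 53.4 to 68.8% of the summed MMP TPM in WT and 56.4 to 59.6% in Pbrm1 cKO. It had 8553, 12070 and 15630 normalized counts among WT libraries and 16090, 14910 and 13640 in Pbrm1 cKO. The groups overlapped because of WT replicate 3 (log2 fold change 0.30 ± 0.18, adjusted p = 0.214), and without that library the log2 fold change was 0.53 (adjusted p = 0.00103). Without WT replicate 1, the lowest library, it was 0.10 (adjusted p = 0.546). Mmp28 (epilysin) had 5 to 20 raw counts in WT and 2 to 8 in Pbrm1 cKO and was not called (log2 fold change -1.74 ± 0.90, adjusted p = 0.133), and its value ran from -0.90 without WT replicate 2 to -2.6 without Pbrm1 cKO replicate 2.

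**Figure D2:**
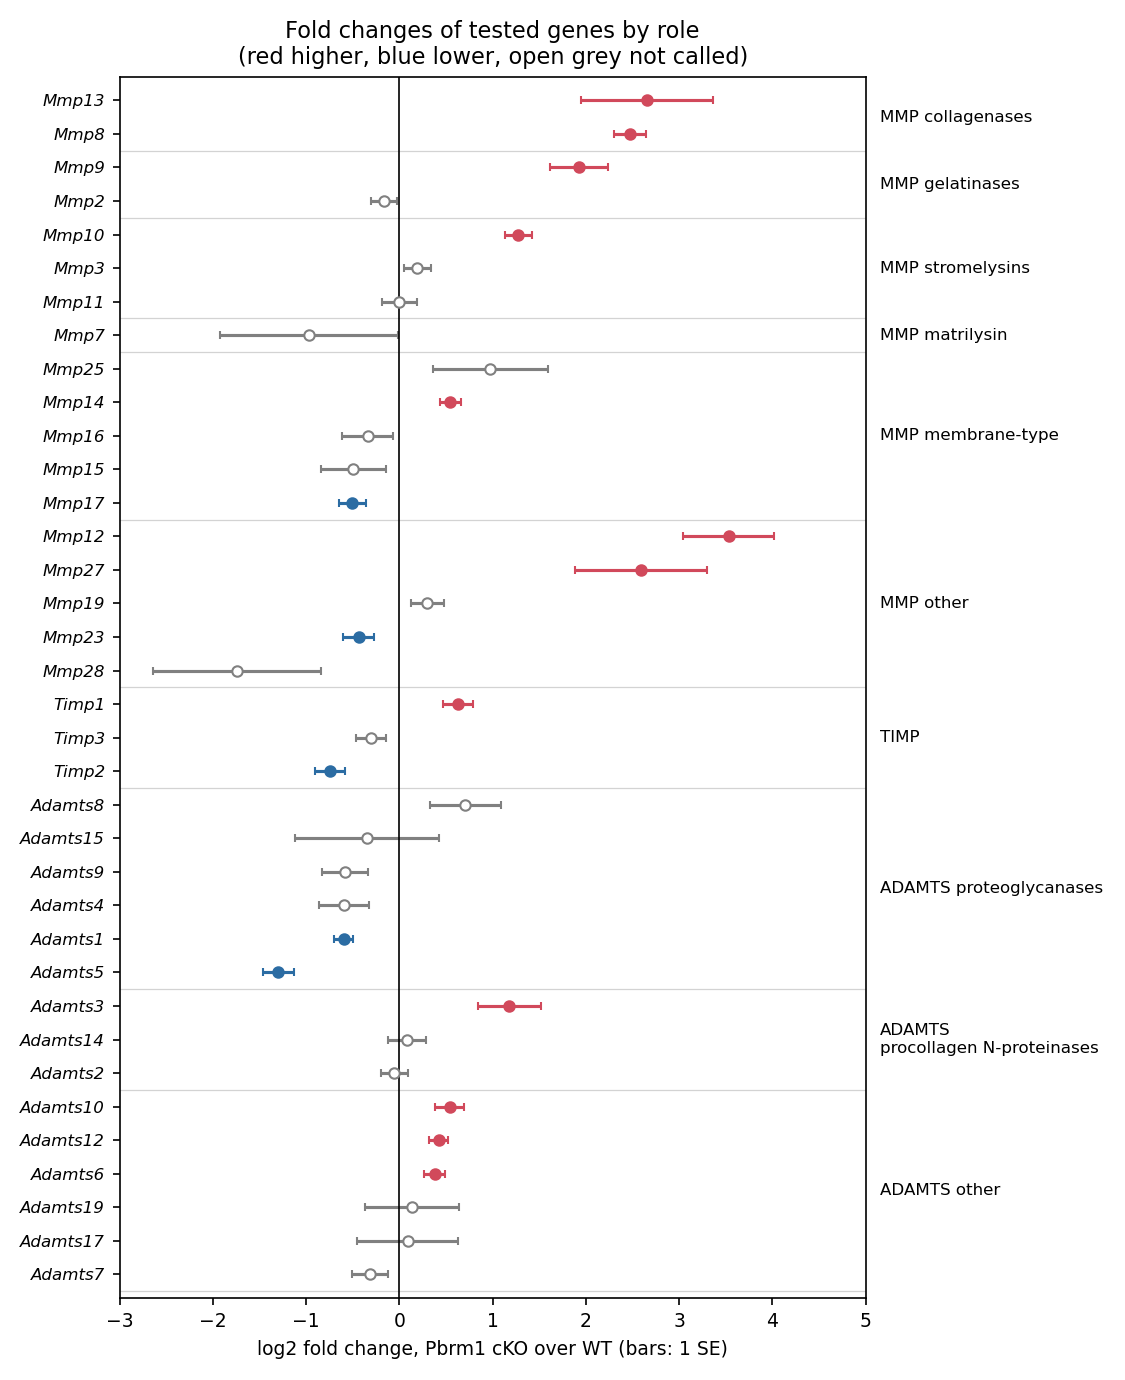
Log2 fold change of Pbrm1 cKO over WT for the 36 tested genes with bars of 1 SE, grouped by role, in red for genes called higher, blue for genes called lower and open grey for genes not called. The highest value is that of Mmp12 (3.53) and the lowest called value that of Adamts5 (-1.30), and both called ADAMTS proteoglycanases, Adamts1 and Adamts5, are blue.

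The Mmp genes of chromosome 9 lie in 1 cluster of 427.1 kb that holds 8 of the 44 genes and also Mmp1a and Mmp1b. From the start of Mmp13 the order is Mmp13, Mmp12, Mmp1b, Mmp3, Mmp1a, Mmp10, Mmp8, Mmp27, Mmp20 and Mmp7 in the coordinates of the count table (GRCm38). Of the 7 tested genes of the cluster, 5 were called higher, against 15.9% of all genes tested, and the other 2 (Mmp3 and Mmp7) were not called, and the median log2 fold change was 2.47. Of the 11 tested Mmp genes elsewhere in the genome, 2 (Mmp9 and Mmp14) were called higher and 2 (Mmp17 and Mmp23) lower, near the 15.9% and 15.2% of all genes tested, and the median was -0.16. The difference between the cluster and the other Mmp genes was not tested. The higher genes of the cluster were not contiguous, since Mmp3 lies between Mmp12 and Mmp10 and was not called. Mmp8 and Mmp27 are separated by 2910 bases on the same strand and their log2 fold changes differed by less than 1 SE of Mmp27. Mmp3 and Mmp10, with Mmp1a (0 counts) between them, lay further apart, at 0.19 and 1.28. Mmp12 overlaps Mmp1b by 1261 bases on the opposite strand, which the stranded counting kept apart.

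**Figure D3:**
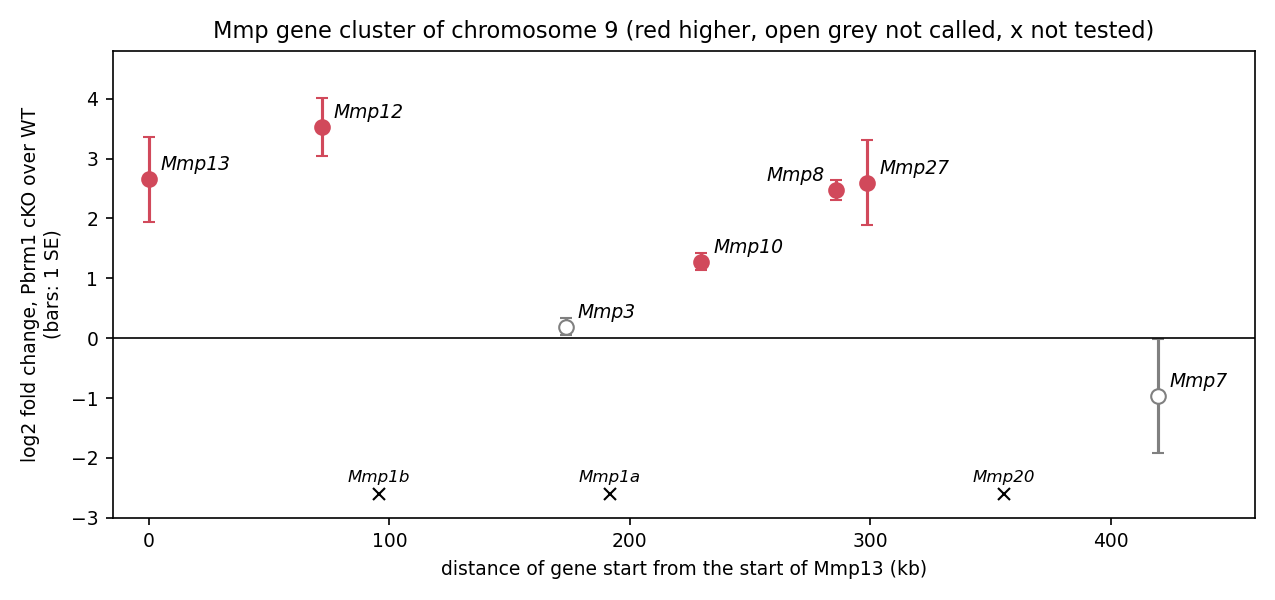
Log2 fold change of Pbrm1 cKO over WT with bars of 1 SE against the distance of each gene's start from that of Mmp13 in kb, in red for genes called higher, open grey for genes not called and crosses at the bottom for genes not tested. Of the 7 tested genes, 5 lie between 1.28 and 3.53, and Mmp3 (0.19) lies in their midst.

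Upstream sequence of these genes is shown because they are neighbours of which most, but not all, were higher in Pbrm1 cKO. Windows of 250 bases before the annotated start were taken from RefSeq (GRCm38.p6) and were found for 30 of the 44 genes. The motif TGAGTCA, known as an AP-1 element in stromelysin and collagenase promoters, was searched on both strands (TGACTCA on the other strand), and TATAAA was searched on the strand of the gene. Of all 32851 windows, 4.46% held the AP-1 letters and 7.59% held TATAAA. Among the genes examined, 5 of the 8 in the cluster held the AP-1 letters and 0 of the 22 elsewhere did. The genes without a window, among them Mmp9, all lie outside the cluster. Their first base lay 35 bases before the start in Mmp13, 46 in Mmp3, 63 in Mmp10 and before the first of 2 starts listed for Mmp7, and 44 before the second of 2 starts listed for Mmp12, which lies in an intron of the gene in the annotation used. They were in no window of Mmp8, Mmp27 or Mmp20, nor before the first start of Mmp12 or the second start of Mmp7. The last 120 bases before the start follow, 5′ to 3′ on the plus strand, with both motifs in capitals: Mmp13 at chr9:7272394-7272513, Mmp12 (second start) at chr9:7347254-7347373, Mmp3 at chr9:7445702-7445821, Mmp10 at chr9:7502222-7502341, Mmp8 at chr9:7558309-7558428 and Mmp7 (first start) at chr9:7691970-7692089.
Mmp13: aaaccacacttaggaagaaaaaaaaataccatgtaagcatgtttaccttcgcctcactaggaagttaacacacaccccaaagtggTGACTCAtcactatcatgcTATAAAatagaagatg
Mmp12: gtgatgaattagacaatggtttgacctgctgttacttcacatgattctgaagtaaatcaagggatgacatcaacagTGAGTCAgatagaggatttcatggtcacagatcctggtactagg
Mmp3: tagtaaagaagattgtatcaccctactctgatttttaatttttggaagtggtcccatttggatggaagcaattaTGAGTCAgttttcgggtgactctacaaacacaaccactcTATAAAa
Mmp10: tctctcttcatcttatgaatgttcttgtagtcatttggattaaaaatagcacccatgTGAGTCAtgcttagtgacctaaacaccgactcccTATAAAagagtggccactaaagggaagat
Mmp8: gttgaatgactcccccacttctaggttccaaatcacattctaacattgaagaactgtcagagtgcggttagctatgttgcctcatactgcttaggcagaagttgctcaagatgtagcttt
Mmp7: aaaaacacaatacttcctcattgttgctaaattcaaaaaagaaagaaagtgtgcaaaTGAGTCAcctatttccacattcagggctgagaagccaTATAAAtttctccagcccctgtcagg

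The letters did not separate the called genes from the others in the cluster. Mmp3 and, before its first start, Mmp7 held them and were not called, whereas Mmp8 and Mmp27 lacked them in these windows and were called higher. A match describes the sequence, and binding of a factor was not measured here.

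The inhibitors moved in different directions. Timp1 (chrX:20870166-20874735), the inducible, secreted inhibitor, had 2280, 3685 and 3380 normalized counts among WT libraries and 4747, 4822 and 4859 in Pbrm1 cKO. Its log2 fold change was 0.63 ± 0.16 (adjusted p = 0.000517), and it was 0.44 without WT replicate 1, the lowest library. Timp2 (chr11:118301069-118355740), which also takes part with MT1-MMP in the activation of proMMP2, fell from 3513, 2408 and 2231 in WT to 1708, 1653 and 1503 in Pbrm1 cKO (log2 fold change -0.75 ± 0.16, adjusted p = 4.89e-05). Here WT replicate 1 was the highest library, and the value without it was -0.52 (adjusted p = 8.77e-07). Timp3, the matrix-bound inhibitor that also blocks ADAMTS enzymes, had 6128, 8189 and 10150 normalized counts among WT libraries and 6859, 6714 and 6195 in Pbrm1 cKO. The groups overlapped through WT replicate 1 (log2 fold change -0.31 ± 0.16, adjusted p = 0.139), and without that library Timp3 was called lower (-0.48, adjusted p = 3.39e-05), as it was with the trend over gene length removed (-0.42, adjusted p = 0.034). Without WT replicate 3, the highest library, the value was -0.12 (adjusted p = 0.515). Timp4 had 1 count in all. Timp1, Timp3 and Timp4 lie inside synapsin genes on the opposite strand, whose highest counts were 40 (Syn1), 19 (Syn3) and 2 (Syn2).

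Timp1 took 60.8, 71.9 and 67.7% of the summed TIMP TPM in WT and 80.7, 81.3 and 82.7% in Pbrm1 cKO, without overlap. Mmp12 took 0.287, 0.781 and 0.59% of the summed MMP TPM in WT and 4.72, 4.89 and 5.45% in Pbrm1 cKO. The summed normalized count per kb of exons was 4535, 5461 and 6434 for the MMP genes in WT and 7639, 7139 and 6840 in Pbrm1 cKO, 1.32-fold on the means. For the TIMP genes it was 4222, 5774 and 5625 in WT and 6626, 6679 and 6618 in Pbrm1 cKO, 1.275-fold, and for both families the groups did not overlap. The ratio of summed MMP to summed TIMP TPM was 1.07, 0.946 and 1.14 in WT and 1.15, 1.07 and 1.03 in Pbrm1 cKO, with overlapping groups. For the ADAMTS genes the groups also overlapped, at 1188, 1171 and 1023 in WT and 1090, 1054 and 1008 in Pbrm1 cKO. In TPM the folds of the sums came out 1.15 times higher, because the 2 scales set the libraries' totals differently, and the sign of the ADAMTS difference turned (0.932-fold against 1.07-fold).

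**Figure D4:**
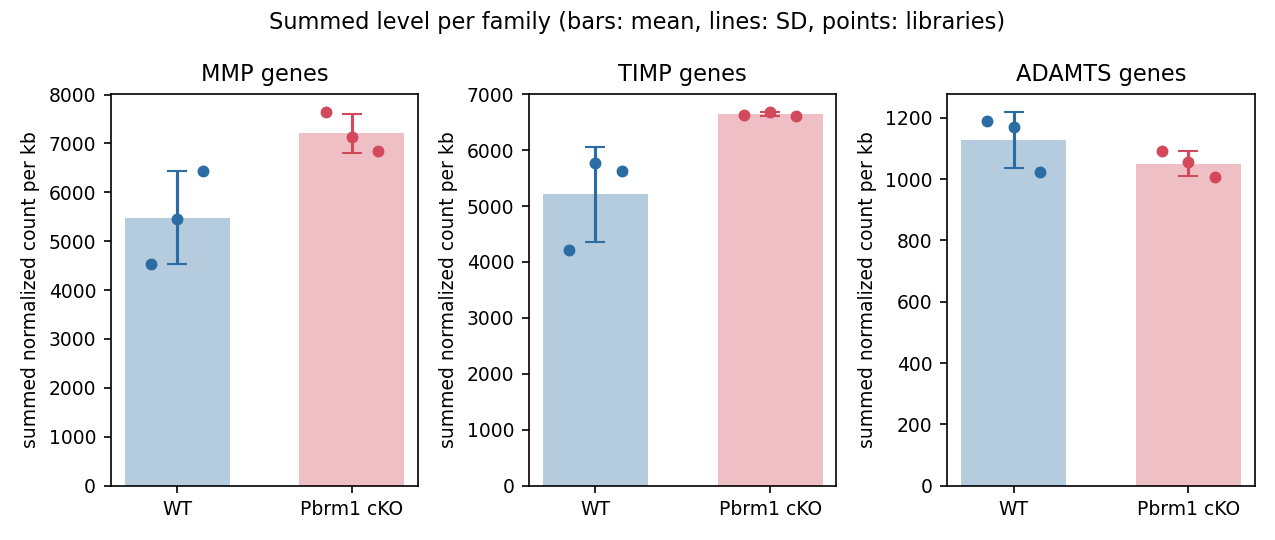
Summed normalized count per kb of exons for MMP, TIMP and ADAMTS genes in WT (blue) and Pbrm1 cKO (red), with bars at the mean, lines of 1 SD (n = 3) and points for libraries. The MMP and TIMP points of Pbrm1 cKO lie above all WT points, and the ADAMTS points overlap.

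ADAMTS proteoglycanases cleave versican and aggrecan, and of the 6 tested 2 were called, both lower. These are 33.3% of the 6, against 31.1% called and 15.2% called lower among all genes tested. Adamts5 (aggrecanase-2, chr16:85856173-85901828) had 368.8, 488.3 and 432.4 normalized counts among WT libraries and 174.6, 189.4 and 159.5 in Pbrm1 cKO. The knockout level was 40.6% of the WT level (log2 fold change -1.30 ± 0.16, adjusted p = 5.66e-14). Adamts1 (chr16:85793827-85803113), a versican-cleaving enzyme that progesterone induces in the ovary, had 2049, 1904 and 1746 normalized counts among WT libraries and 1313, 1250 and 1202 in Pbrm1 cKO (log2 fold change -0.60 ± 0.10, adjusted p = 8.04e-08). Adamts1 and Adamts5 lie on the same strand of chromosome 16, 53.1 kb apart. Adamts1 took 30.7 to 32.5% of the summed ADAMTS TPM in WT and 22.4 to 22.7% in Pbrm1 cKO. Adamts4 (aggrecanase-1) and Adamts9 were not called, at log2 fold changes of -0.59 ± 0.27 (adjusted p = 0.074) and -0.58 ± 0.25 (adjusted p = 0.055). Adamts9 ranged from 80.16 to 118.8 normalized counts among WT libraries and from 65.11 to 71.31 in Pbrm1 cKO, and it was called lower in 5 of 14 alternative analyses. Adamts4 had 119.7, 218.6 and 250.8 in WT and 114.5 to 149.0 in Pbrm1 cKO, and it was called lower in 1 of 14 alternative analyses, without WT replicate 1 (-0.85, adjusted p = 0.00015). Without WT replicate 3 its value was -0.381 (adjusted p = 0.345). Adamts8 and Adamts15, neighbours on chromosome 9, were not called (adjusted p = 0.152 and 0.794).

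ADAMTS procollagen N-proteinases remove the amino propeptide of fibrillar procollagens. Adamts3 had 31.0, 22.2 and 27.02 normalized counts among WT libraries and 73.01, 60.73 and 47.85 in Pbrm1 cKO (log2 fold change 1.18 ± 0.34, adjusted p = 0.00279), a call that was lost without Pbrm1 cKO replicate 1 (adjusted p = 0.0562). Adamts2, the most abundant of the 3 in TPM, ranged from 2592 to 3872 in WT and from 2997 to 3377 in Pbrm1 cKO (log2 fold change -0.06 ± 0.14, adjusted p = 0.823). Adamts14 was not called either (0.08 ± 0.21, adjusted p = 0.825). Adamts2 stood at 66.68 ± 13.93 TPM in WT and 73.67 ± 6.592 in Pbrm1 cKO, and Adamts3 at 0.9307 ± 0.1772 and 2.424 ± 0.5717 (n = 3 each, SD), so the call of Adamts3 concerns a minor transcript.

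Of the other ADAMTS genes, 3 of 6 tested were called, all higher, against 31.1% called and 15.9% higher among all genes. Adamts12, which cleaves cartilage oligomeric matrix protein, had 1579, 1725 and 1473 normalized counts among WT libraries and 2183, 2176 and 2036 in Pbrm1 cKO (log2 fold change 0.42 ± 0.10, adjusted p = 0.000172). Adamts10, a fibrillin-binding enzyme, had 227.7, 244.2 and 195.7 in WT and 304.8, 314.8 and 350.9 in Pbrm1 cKO (0.54 ± 0.15, adjusted p = 0.00256). Adamts6, its closest relative, had 550.5, 637.0 and 624.8 in WT and 762.6, 775.0 and 816.3 in Pbrm1 cKO (0.38 ± 0.11, adjusted p = 0.00414), a call that was lost with the trend over gene length removed (adjusted p = 0.0634). These 3 differences are small, at 1.30- to 1.45-fold on the means. Their groups did not overlap, which also held for 48.6% of all genes tested. Adamts7, which also cleaves cartilage oligomeric matrix protein, was not called (-0.32 ± 0.19, adjusted p = 0.214), nor were Adamts17 and Adamts19, which had 10 to 22 raw counts per library.

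In order of TPM, Timp1 and Mmp19 led in both groups, at 658.4 ± 141.9 and 643.0 ± 183.7 in WT and 1173 ± 22.54 and 913.7 ± 102.0 in Pbrm1 cKO (n = 3 each, SD). In WT these 2 did not differ beyond their spread. Timp3 and Mmp2 came next in both groups. Mmp12 moved from place 20 of the 44 genes in WT (5.829 ± 2.891 TPM) to place 9 in Pbrm1 cKO (78.1 ± 2.152 TPM), and Mmp8 from 19 to 13. Adamts5 moved from place 18 to 24.

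In bulk RNA, a change in the number of cells of a type cannot be told apart from a change in RNA per cell. Macrophage markers were higher in the knockout. Of 12 macrophage markers, 11 were tested and all 11 were higher in Pbrm1 cKO, with a median log2 fold change of 2.22. Their summed TPM ranged from 471.6 to 1117 in WT and from 4660 to 4789 in Pbrm1 cKO. Csf1r, the receptor for macrophage colony-stimulating factor, had a log2 fold change of 2.59 (adjusted p = 1.62e-72) and the lysosomal Cd68 one of 2.28 (adjusted p = 3.75e-25). Cd163 was at 0 counts in every WT library and at 2 to 5 in Pbrm1 cKO. WT replicate 1 had the lowest macrophage sum of all libraries, and also the lowest neutrophil (3.441 TPM) and epithelial (214.0 TPM) sums. In it 14 of the 36 tested genes (38.9%) were at their lowest of all 6 libraries, against 22.4% of all genes tested. These were Mmp3, Mmp7, Mmp8, Mmp10, Mmp12, Mmp13, Mmp19, Mmp25, Mmp27, Timp1, Timp3, Adamts6, Adamts15 and Adamts19, while Mmp9 was lowest in WT replicate 2. The part of macrophages in the values of Mmp12, Mmp13, Mmp8, Mmp9 and Mmp27 was not tested.

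Of 10 neutrophil markers, 4 were tested and 2 were higher, Csf3r (log2 fold change 3.16, adjusted p = 4.04e-20) and S100a8 (1.44, adjusted p = 0.0166), both of which monocytes also express. The call of S100a8 was lost without WT replicate 1 (adjusted p = 0.0772) and without Pbrm1 cKO replicate 1 (0.114), 2 (0.0763) or 3 (0.0842). The summed TPM of the 10 markers was 3.441 to 7.249 in WT and 19.67 to 23.54 in Pbrm1 cKO. The granule genes Ngp and Elane and the chemokine receptor gene Cxcr2 were at 0 counts in all 6 libraries. Of the other markers, named after their values were seen, Mpo had 1 to 5 counts per library, S100a9 0 to 4, Camp 0 to 2 and Retnlg 0 to 1. Mcemp1 had 1 to 8 counts in WT and 13 to 19 in Pbrm1 cKO (adjusted p = 0.0667). Counts of the following lists stand against 15.9% higher and 15.2% lower among all genes tested. Of 11 tested epithelial markers 3 were higher, of 10 smooth muscle markers 5 were lower, and of 10 endothelial markers 1 was higher and 3 lower. Of 14 uterine stromal markers 1 was higher and 6 lower, and their summed TPM was 3840 to 4499 in WT and 3467 to 3982 in Pbrm1 cKO, so the labelled cell type was present in all 6 libraries.

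**Figure D5:**
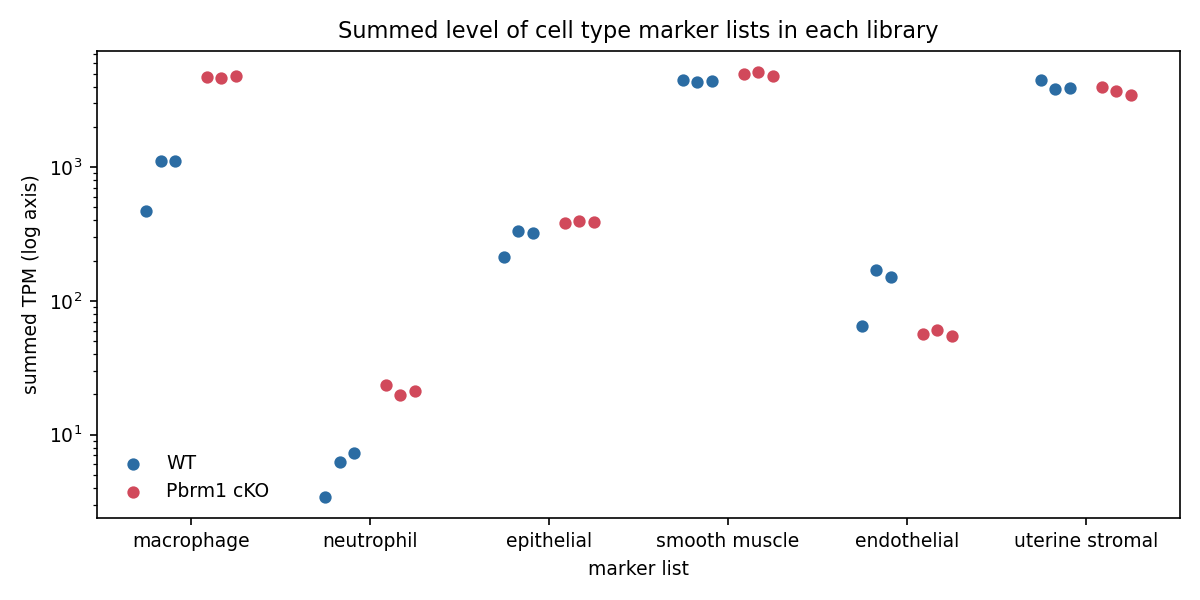
Summed TPM (log axis) of 6 lists of cell type markers in each WT (blue) and Pbrm1 cKO (red) library. The macrophage sums of Pbrm1 cKO (4660 to 4789) lie above those of WT (471.6 to 1117), and WT replicate 1 is the lowest WT library for the macrophage, neutrophil, epithelial and endothelial lists.

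Genes that act with these enzymes were examined as lists, to be read against the 31.1% of all genes called (15.9% higher and 15.2% lower). Of 14 cathepsins and cystatins, which are lysosomal proteases and inhibitors of cysteine proteases, 10 were higher and 2 lower. The aspartic protease Ctsd had a log2 fold change of 1.33 (adjusted p = 5.49e-27) and Ctsz one of 0.96 (adjusted p = 1.22e-26). The inhibitor Cst6 fell by 2.84 on the log2 scale (adjusted p = 4.63e-15) and the collagenolytic Ctsk fell by 0.57 (adjusted p = 2.6e-06). Of 12 regulators and activators of MMPs, 3 were higher and 3 lower. Lrp1, the endocytic receptor that clears several MMPs, had a log2 fold change of 0.76 (adjusted p = 1.01e-16) and the testican Spock1 one of 2.53 (adjusted p = 1.05e-12), whereas the proprotein convertase Pcsk5 fell by 1.15 (adjusted p = 3.46e-10) and Spock2 fell by 0.67 (adjusted p = 0.00358), a call that was lost without Pbrm1 cKO replicate 3 (adjusted p = 0.0525).

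In the plasminogen system, which activates proMMPs, 3 of 7 tested genes were higher and 1 lower. Plau, which encodes urokinase, had a log2 fold change of 0.38 (adjusted p = 0.00481), while the protease inhibitor gene Serpine2 fell by 1.64 (adjusted p = 7.89e-06). Of 10 tested ADAM proteases, the membrane-bound relatives, 3 were higher and 2 lower. Adam17, the tumor necrosis factor converting enzyme, had a log2 fold change of 0.89 (adjusted p = 2.12e-20) and Adam8 one of 1.36 (adjusted p = 0.00049), and Adam15 (-0.66, adjusted p = 2.57e-06) and Adamdec1 (-2.78, adjusted p = 0.00288) were lower. The call of Adamdec1 rests on WT replicate 1, with 65 raw counts against 12 and 9 in the other WT libraries, and without it the value was -1.35 (adjusted p = 0.233). Of 6 tested ADAMTS-like genes, whose proteins lack protease activity, Thsd4 (1.83, adjusted p = 1.17e-31) and Adamtsl1 (1.73, adjusted p = 4.75e-08) were higher and Adamtsl5 (-0.45, adjusted p = 0.0129) was lower. The call of Adamtsl5 was lost without WT replicate 1 (adjusted p = 0.0641), Pbrm1 cKO replicate 2 (0.0724) or Pbrm1 cKO replicate 3 (0.102), and that of Plau without Pbrm1 cKO replicate 1 (0.0677).

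Of 11 tested substrates of ADAMTS enzymes, 2 were higher and 6 lower. Col3a1, the type III procollagen chain, fell by 2.17 on the log2 scale (adjusted p = 1.41e-93) and the basement membrane gene Nid2 fell by 2.12 (adjusted p = 1.95e-60). Vwf, the substrate of ADAMTS13, had a log2 fold change of 1.90 (adjusted p = 1.01e-07) and the fibrillin gene Fbn2 one of 0.83 (adjusted p = 0.00048). Of 5 tested genes of the BMP1/tolloid group, which trim the carboxyl propeptide of procollagens or enhance this step, Pcolce2 was higher (0.58, adjusted p = 9.24e-05) and Pcolce lower (-2.04, adjusted p = 3.25e-31).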

How the data were processed

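RNA-seq counts of 3 WT and 3 Pbrm1 cKO libraries were analysed. The deposited values are raw counts per gene, with replicates kept apart. Per the file header and the submitters' processing notes, the authors trimmed reads with cutadapt, mapped them to GRCm38.p5 with HISAT2 and counted them with featureCounts 1.6.4, strand setting 2, on GENCODE M18. Multimapping reads and reads that overlap 2 genes go uncounted under that tool's defaults, so near-identical stretches are undercounted. The labels and the study's methods differ on the library kit (priming with transcript depletion, or poly(A) selection), and this is not settled here.

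Gene symbols were found for 54079 identifiers (99.7%). DESeq2, the tool the study names, was used here in version 1.42.0 under R 4.3.3 (Wald test without covariates, default size factors and independent filtering) and fitted on all genes, with Benjamini-Hochberg adjustment over all genes tested and a threshold of 0.05. Every adjusted p is from DESeq2 unless edgeR 4.0.16 is named. The fit gives unshrunken log2 fold changes. TPM were computed from the deposited counts and the gene length column. A count of 0 allows up to 3 counts, or 0.164 to 0.226 CPM, and these limits cover counting error only. Simulated data with 200 changed genes of 28552 were tested, and DESeq2 recovered 181 (90.5%) with 11 false calls. The simulation used the same dispersion for every gene in both groups and changed only well-counted genes, by large folds. The real groups differed in spread, so these figures do not carry over to small folds or genes with few reads. Counts of each pair of replicates differed by more than sampling noise, so no library was a copy. The 44 genes and all lists were chosen with earlier results of these data known. All 44 could be named, with, of each related list, the 2 genes of lowest adjusted p among those called higher and the 2 among those called lower, and of each marker list the 2 of lowest adjusted p and markers at 0. A gene that this rule would name is not reported here. There were 14 alternative analyses, of which 6 leave out a library. Sequences are from RefSeq (GRCm38.p6), and transcripts for the check of shared 50-base sequences from GENCODE M21.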

Additional observations from a re-analysis of the deposited data

How the results depend on the processing

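The 17 calls were recomputed under 14 alternatives, and 9 genes passed under all of them. The number of genes called higher was 8 to 13, against 12. Under the thresholds of the study (fold above 1.5, p under 0.01, adjusted p under 0.1), 3 of the 44 genes were lower, and 1665 of all genes were higher and 1452 lower, against 2774 and 2658. The study itself reported fewer genes in each direction at these thresholds, and the reason for the difference was not tested. These thresholds change the fold, the p and the adjusted p together, and their separate effects were not tested. They kept 11 of the 17 calls and dropped Mmp14, Mmp17, Mmp23, Adamts6, Adamts10 and Adamts12. With the replicate number as a block, 3 genes were lower, and 15 of the 17 calls were kept (Mmp17 and Mmp23 were lost). Leaving out 1 library gave 4 to 8 genes lower, with 8 without WT replicate 1, where Timp3, Adamts4 and Adamts9 were added. The cause was not tested. Same-numbered libraries correlated at 0.114, -0.0515 and 0.0028 in their deviations from the group means. WT replicate 2 and Pbrm1 cKO replicate 3, with different numbers, correlated at 0.113. Whether same-numbered libraries were handled together is not known from these values. With the block, 2175 of all genes were higher and 1828 lower.

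No called gene changed direction in any of the 14 alternatives. Among uncalled genes near 0, the log2 fold change of Mmp11 was 0.007 with TMM size factors, 0.021 with limma voom, 0.045 with the gene length trend removed, 0.017 with the replicate block and -0.174 to 0.12 when a library was left out. That of Adamts17 was -0.012 with the length trend removed and -0.022 to 0.294 when a library was left out. Leaving out a library gave -0.771 to 0.026 for Adamts15, -0.208 to 0.073 for Adamts2 and -0.066 to 0.374 for Adamts19. Depth limits Mmp7, Mmp27, Mmp28, Adamts15, Adamts17 and Adamts19, and for the 7 genes with at most 3 counts in every library no difference was detectable.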
